A study of Mus musculus with 6 samples.

Results

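The genes described here are the 3 D-type cyclins Ccnd1, Ccnd2 and Ccnd3, their partner kinases Cdk4 and Cdk6, the inhibitors Cdkn1b and Cdkn1c of the CIP/KIP family, and the inhibitors Cdkn2a, Cdkn2b and Cdkn2c of the INK4 family. They were taken by gene symbol from a table of 23420 genes, all 10 symbols were found, and all 10 passed the filter on low counts that left 12672 genes for testing. Messenger RNA was sequenced from cultured mouse epidermal keratinocytes, the cells of the outer layer of the skin, in 3 libraries labelled iKO (induced knockout, K14CreERT2+;Gata6 fl/fl) and 3 labelled WT (K14CreERT2-;Gata6 fl/fl). Both groups therefore carried loxP-flanked Gata6, which encodes a zinc finger transcription factor, both received 1 µM 4-hydroxytamoxifen for 6 hours at passage 8 to 10 in low-calcium medium, and they differed by the tamoxifen-activated Cre under the keratin 14 promoter, which is active in basal keratinocytes. Whether the libraries of a group came from separate animals or cultures is not stated. The p-values therefore set the group difference against the scatter of these libraries, and that scatter may be technical.

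D-type cyclins are made in response to growth signals, bind CDK4 or CDK6, and these complexes phosphorylate the retinoblastoma protein RB so that E2F transcription factors can switch on genes for DNA replication. INK4 proteins bind CDK4 and CDK6 and keep the cyclins off, while CIP/KIP proteins act mainly on CDK2 complexes and also bind cyclin D complexes. In skin, this circuit sets whether a basal keratinocyte enters a further round of division, and transcripts of the Cdkn2a-Cdkn2b locus are known to build up when keratinocytes are passaged in culture.

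Reads assigned to genes numbered 32751896 to 83337263 in the libraries labelled iKO and 21943467 to 79055307 in those labelled WT. The deepest library of each group was iKO 33 (the number in its column name is in no iKO title, so which of the 3 iKO samples it is was not settled) and WT 3. Gata6 itself went against the labels, with 14.2, 21.02 and 17.002 normalised CPM (the reads of a gene relative to all gene reads of its library, adjusted by TMM factors) in iKO 3, iKO 4 and iKO 33, against 2.86, 0.519 and 5.37 CPM in WT 2, WT 3 and WT 4. The counts cover the whole gene, and which exons Cre removes is not given in the labels. Directions below are therefore those of the libraries labelled iKO relative to the libraries labelled WT. An exchange of labels or columns would turn the sign of every fold change given here, and it was not tested. Sex coincided with the label and cannot be told apart from it: Xist, transcribed from the inactive X chromosome, measured 0.0824 to 2.62 CPM in the libraries labelled iKO and 605 to 889 CPM in those labelled WT. The basal keratinocyte markers Krt5 and Krt14 were among the abundant transcripts of both groups, at 13920 CPM or more in the libraries labelled iKO and 12916 CPM or more in those labelled WT. Of the 9 basal markers, 4 had positive log2 fold changes and 0 passed in edgeR. Trp63, which encodes the basal transcription factor p63, measured 203, 191 and 205 CPM in iKO 3, iKO 4 and iKO 33, against 331, 307 and 323 CPM in WT 2, WT 3 and WT 4 (log2 fold change -0.68, adjusted p = 0.0529 in edgeR and 9.1e-09 in DESeq2). Krt15 averaged 5.23 CPM (iKO) and 12.7 CPM (WT), with a log2 fold change of -1.28 (adjusted p = 0.289 in edgeR and 0.0891 in DESeq2), and Cdh1, the E-cadherin gene, 635 and 433 CPM (0.55; 0.130 in edgeR and 0.0045 in DESeq2). The part of these markers in the results below was not tested. The 7 fibroblast markers together reached at most 3.38 CPM (iKO) and 2.64 CPM (WT), with Dcn and Lum at 0 in all libraries; melanocyte, immune and endothelial lists reached at most 8.47, 0.467 and 8.94 CPM (iKO) and 11.9, 0.455 and 19.045 CPM (WT), with Dct and Cd207 at 0. Reads without a unique position made up 21.7% to 26.5% of counts (iKO) and 29.5% to 30.5% (WT), and their part in the results was not tested. These are bulk samples, in which fewer cells of a type and less RNA per cell cannot be told apart.

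The comparison asks whether the transcripts of the G1 machinery differ between keratinocytes labelled iKO and WT. With Benjamini-Hochberg adjustment over all tested genes, 0 of the 10 passed edgeR's quasi-likelihood test (lowest adjusted p = 0.359), where 43 of 12672 genes (0.339%) did. Of the members, 3 had a positive and 7 a negative log2 fold change, with a median of -0.10 beside 0.01 over all tested genes. No member had an unadjusted p under 0.05 in edgeR, where 15.0% of all tested genes did. DESeq2, which called 6.49% of the genes it adjusted, and limma-voom called 0 of the 10 as well; Ccnd2 and Cdkn2b had an unadjusted p under 0.05 in DESeq2 (16.4% of genes there) and none in limma-voom. In the authors' deposited DESeq2 table the lowest adjusted p among the 10 genes was 0.282. Ccnd2 and Cdkn2b had an unadjusted p under 0.05 there too (0.0466 and 0.0439). The groups overlapped for all 10 genes, whereas 21.9% of all tested genes had groups that did not overlap. Counts were between 115 and 69416 reads per gene and library, and at the lowest of these counting error alone is 9.33% of the value.

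**Figure D1:**
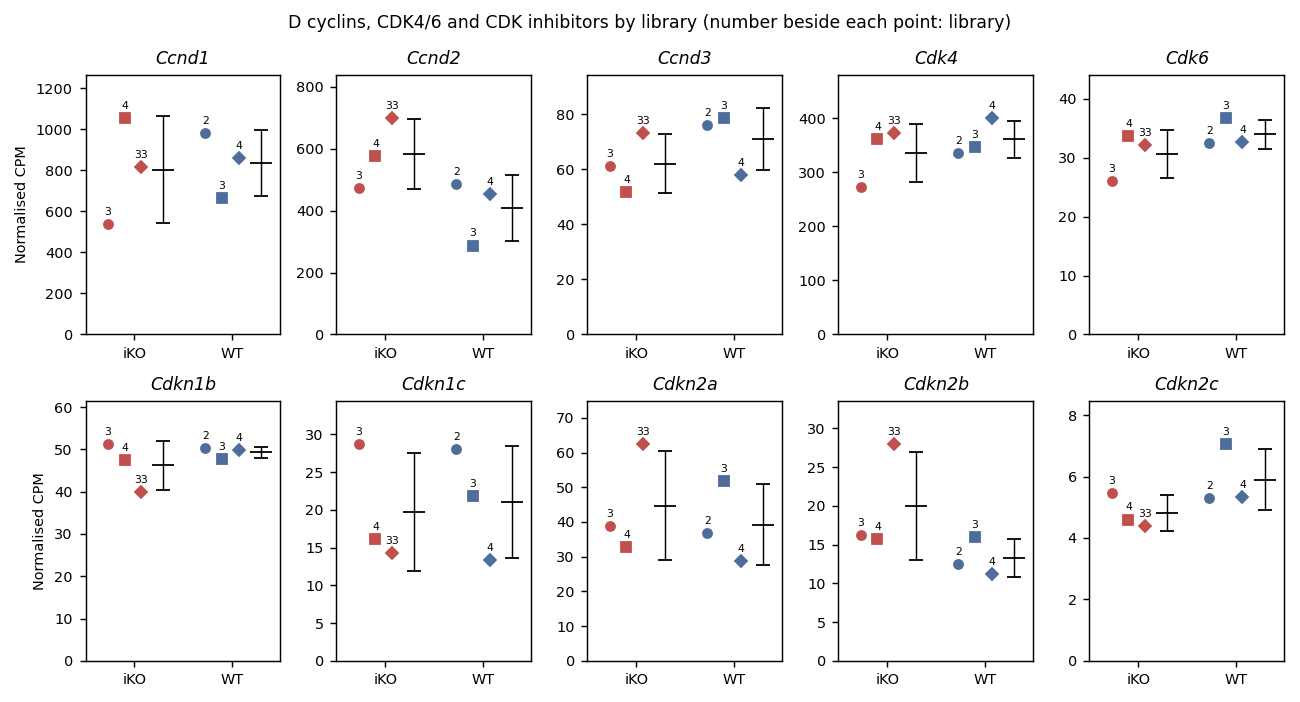
Normalised CPM of the 10 genes (vertical axes, each starting at 0) in the libraries labelled iKO (red, left) and WT (blue, right), with the library number beside each point and the mean ± SD of 3 libraries as a bar to the right of each group. The groups overlap in every panel; Ccnd2 and Cdkn2b come closest to separating.

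Among the D cyclins, Ccnd1 varied as much within the groups as between them, and Ccnd2 had higher values in most libraries labelled iKO. Ccnd1 encodes cyclin D1, the D cyclin most often linked to growth signals in epidermis (chromosome 7, 144929931 to 144939925, minus strand, mm10). It measured 538, 1055 and 817 CPM in iKO 3, iKO 4 and iKO 33, against 983, 663 and 858 CPM in WT 2, WT 3 and WT 4. The lowest and the highest value of all libraries were thus both found in the libraries labelled iKO, with 1.96 times between them. The log2 fold change was -0.05 (SE 0.26, approximate 95% interval -0.67 to 0.56, edgeR adjusted p = 0.948), and it was 0.17 without iKO 3, -0.30 without iKO 4 and 0.08 without WT 2.

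Ccnd2 encodes cyclin D2 (chromosome 6, 127125162 to 127152193, minus strand). It measured 472, 576 and 700 CPM in iKO 3, iKO 4 and iKO 33, against 485, 287 and 455 CPM in WT 2, WT 3 and WT 4. The groups overlapped through iKO 3 and WT 2 alone. The means were 583 ± 114 and 409 ± 106 CPM (SD, n = 3 each), a log2 fold change of 0.51 (SE 0.23, interval -0.04 to 1.06) with an edgeR adjusted p of 0.364 (0.369 to 0.634 when single libraries were left out). The extremes lay in the deepest library of each group, iKO 33 and WT 3, and over the 4 shallower libraries the log2 fold change was 0.16 (SE 0.16). Leaving out WT 3 alone gave 0.31.

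Ccnd3 encodes cyclin D3 (chromosome 17, 47505051 to 47599691, plus strand), which in other tissues acts in differentiating as well as dividing cells. Its values were 61.3, 51.97 and 73.1 CPM in iKO 3, iKO 4 and iKO 33, against 76.2, 78.8 and 58.0 CPM in WT 2, WT 3 and WT 4. Libraries of both groups were interleaved, and the log2 fold change was -0.19 (SE 0.18, interval -0.61 to 0.22, edgeR adjusted p = 0.662). It was -0.076 without iKO 4 and -0.33 without WT 4.

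Because each D cyclin can take the place of another at CDK4 and CDK6, their proportions were also set side by side per kilobase of annotated exon, the scale on which different genes can be compared. Ccnd1 made up 70.4 ± 5.65% of the summed D cyclin level in the libraries labelled iKO and 77.5 ± 0.638% in those labelled WT (SD, n = 3 each). Ccnd2 made up 29.2%, 21.02% and 29.04% in iKO 3, iKO 4 and iKO 33, against 19.2%, 16.9% and 20.4% in WT 2, WT 3 and WT 4. The Ccnd2 share was thus higher in each library labelled iKO than in any labelled WT, though iKO 4 lay within 1 percentage point of WT 4. Ccnd3 was the least abundant of the 3, at 3.12 ± 1.03% (iKO) and 3.66 ± 1.16% (WT). The plain ratio of Ccnd2 to Ccnd1 counts, which depends neither on library scaling nor on gene length when libraries are compared, was 0.876, 0.546 and 0.857 in the libraries labelled iKO, against 0.493, 0.434 and 0.531 in those labelled WT. This ratio was chosen after its values were seen and is given as a description with no test. The summed D cyclin level was 240 ± 61.6 (iKO) and 229 ± 44.9 (WT) CPM per kilobase, closer together than either group's own spread.

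**Figure D2:**
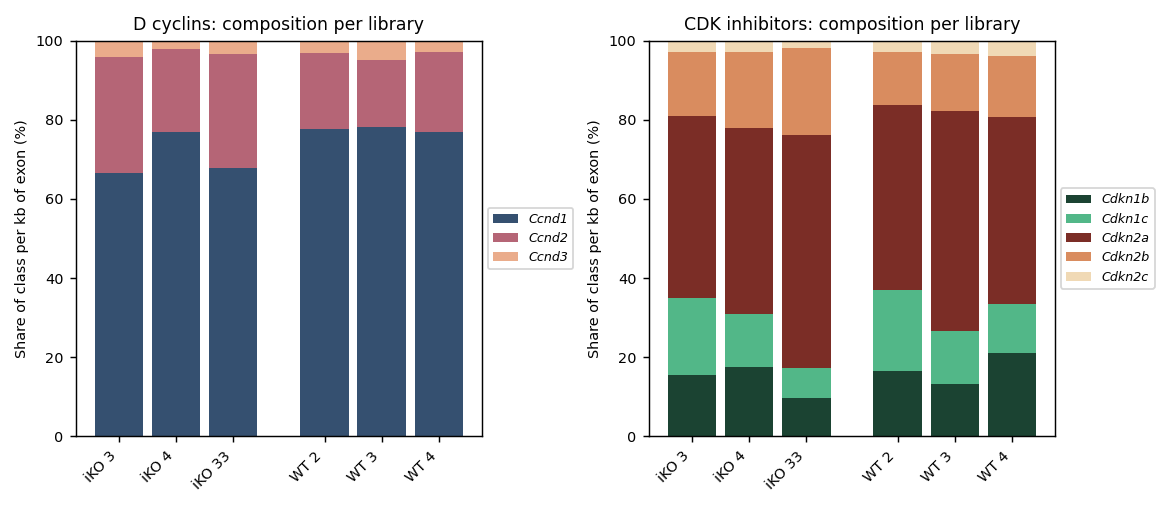
Share of each gene in the summed level of its class, in percent per kilobase of annotated exon, for the 3 libraries labelled iKO (left bars) and the 3 labelled WT (right bars). Ccnd1 takes 66.7% to 78.1% of the D cyclins, and Cdkn2a takes 46.01% to 58.7% of the inhibitors among the members. Outside this sum are Cdkn2d and Cdkn1a, which averaged 407 CPM (iKO) and 248 CPM (WT).

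Cdk4 and Cdk6, the kinases that the D cyclins activate, did not differ between the groups beyond the spread of their libraries. Cdk4 (chromosome 10, 127063534 to 127067920, plus strand) measured 273, 361 and 373 CPM in iKO 3, iKO 4 and iKO 33, against 337, 346 and 401 CPM in WT 2, WT 3 and WT 4. The value of iKO 3 was the lowest of the 6. The log2 fold change was -0.11 (SE 0.15, interval -0.46 to 0.25, edgeR adjusted p = 0.795) 0.023 without that library and -0.19 without iKO 33. Cdk6 (chromosome 5, 3341485 to 3531008, plus strand) measured 26.03, 33.8 and 32.2 CPM in the same libraries labelled iKO, against 32.5, 36.8 and 32.6 CPM in those labelled WT. Here too iKO 3 was the lowest of the 6, with a log2 fold change of -0.15 (SE 0.14, interval -0.48 to 0.18, adjusted p = 0.671) that was -0.04 without it and -0.22 without iKO 4. Per kilobase, Cdk4 made up 97.9 ± 0.104% of the pair in the libraries labelled iKO and 97.8 ± 0.280% in those labelled WT, so Cdk4 was the predominant transcript of the pair in all 6 libraries. Ccnd1, Cdk4 and Cdk6 all had their lowest value in iKO 3.

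The Cdk4 promoter is shown because CDK4 is a known target of the transcription factor MYC through CACGTG motifs (E boxes) in human cells, and Myc was measured here. The bases before the RefSeq start of mouse Cdk4 (GRCm38.p6, plus strand, chr10:127063285-127063533) are given 5′ to 3′, with CACGTG in capitals:
Cdk4 promoter: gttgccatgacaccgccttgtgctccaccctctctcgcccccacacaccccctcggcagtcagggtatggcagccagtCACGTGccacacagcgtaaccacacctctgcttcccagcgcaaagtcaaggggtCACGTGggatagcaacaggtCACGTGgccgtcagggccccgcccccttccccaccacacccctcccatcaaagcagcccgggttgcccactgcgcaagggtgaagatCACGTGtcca
This motif reads the same on both strands. It occurs 4 times in the Cdk4 window, whereas 7.15% of 32851 RefSeq windows of the same length (250 bases before to 50 after a start) hold it at least once and 8 windows (0.0244%) hold it 4 times or more. Among the other members' windows it occurs once in that of Cdk6 and once in 1 of 2 windows of Cdkn2c. Myc measured 123, 114 and 133 CPM in iKO 3, iKO 4 and iKO 33, against 208, 171 and 171 CPM in WT 2, WT 3 and WT 4. These groups did not overlap, as was so for 21.9% of all tested genes. The log2 fold change of -0.57 (SE 0.12) did not pass (edgeR adjusted p = 0.121), and the Cdk4 values above overlapped. A match of letters is a description and no evidence of binding.

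The CIP/KIP inhibitors Cdkn1b and Cdkn1c showed no difference beyond the spread between libraries. Cdkn1a, of the same family, is given below with the other CDK inhibitors. Cdkn1b encodes p27, whose amount in cells is set largely by translation and protein turnover (chromosome 6, 134920401 to 134925513, plus strand). It measured 51.3, 47.6 and 39.9 CPM in iKO 3, iKO 4 and iKO 33, against 50.3, 47.8 and 49.9 CPM in WT 2, WT 3 and WT 4. It had the narrowest interval of the 10 genes: the log2 fold change was -0.09 (SE 0.13, interval -0.39 to 0.20, edgeR adjusted p = 0.781), 0.0024 without iKO 33 and -0.17 without iKO 3. Its within-group SD of log2 CPM was 0.13, against a median of 0.24 over all tested genes.

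Cdkn1c encodes p57, an inhibitor expressed from the maternal allele of an imprinted domain (chromosome 7, 143458339 to 143461050, minus strand). It measured 28.7, 16.2 and 14.2 CPM in iKO 3, iKO 4 and iKO 33, against 28.03, 21.9 and 13.3 CPM in WT 2, WT 3 and WT 4. The spread within each group was about as wide as the whole range of the data, 2.02 times (iKO) and 2.11 times (WT) from lowest to highest. The log2 fold change was -0.10 (SE 0.35, interval -0.93 to 0.73, adjusted p = 0.930), the widest interval of the 10, and it was -0.47 without iKO 3 and 0.16 without WT 2, with positive values also without iKO 4 (0.03) and without iKO 33 (0.09). Of 10 genes in the imprinted domain around it or in the one beside it, 8 were tested. Of these, 6 had positive and 2 negative log2 fold changes (7 and 1 under upper-quartile scaling). In edgeR 0 passed and 1 had an unadjusted p under 0.05, as did 15.0% of all tested genes. DESeq2 called 1, beside 6.49% of all the genes it adjusted. Cd81, a tetraspanin gene, stood at 0.46 (SE 0.11), Phlda2, an imprinted restraint on placental growth, at 0.57 (SE 0.29), the transporter gene Slc22a18 at 0.54 (SE 0.46) and the non-coding RNA Kcnq1ot1 at 0.21 (SE 0.21).

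Of the INK4 inhibitors, Cdkn2b had the largest log2 fold change of the 10 genes, Cdkn2a varied widely within groups, and Cdkn2c was the least abundant member. Cdkn2a encodes 2 proteins from separate first exons (chromosome 4, 89274471 to 89294653, minus strand): p16Ink4a, which binds CDK4 and CDK6, and p19Arf, which stabilises p53 by binding MDM2. The first 60 coding bases of each form and the first 60 bases of the exon they share are shown because the table counts reads per gene, and only reads from the first exons, or across their junctions, could tell the forms apart. They are given on the minus strand, 5′ to 3′, from GENCODE vM21 transcripts, with the start codon in capitals; the shared exon begins at another codon position in p19Arf than in p16Ink4a.
p16Ink4a start (chr4:89282052-89282111): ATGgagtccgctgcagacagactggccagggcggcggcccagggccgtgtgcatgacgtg
p19Arf start (chr4:89294464-89294523): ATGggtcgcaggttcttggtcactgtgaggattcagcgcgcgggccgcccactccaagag
shared exon 2 start (chr4:89276926-89276985): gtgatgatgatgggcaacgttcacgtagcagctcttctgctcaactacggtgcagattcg
Of 1172 exon bases of the gene, 575 (49.1%) belong to both transcripts, so the values below hold both forms together.

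Cdkn2a measured 39.0, 32.7 and 62.4 CPM in iKO 3, iKO 4 and iKO 33, against 36.7, 51.9 and 28.9 CPM in WT 2, WT 3 and WT 4. In both groups the deepest library was the highest, and the other 4 libraries lay between 28.9 and 39.0 CPM. The log2 fold change was 0.19 (SE 0.30, interval -0.52 to 0.90, edgeR adjusted p = 0.818), -0.13 without iKO 33 and 0.45 without WT 3. Over the 4 shallower libraries it was 0.13 (SE 0.19).

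Cdkn2b encodes p15, the INK4 inhibitor induced by TGF-β in human keratinocytes, and lies 11.6 kb from Cdkn2a (chromosome 4, 89306299 to 89311039, minus strand). It measured 16.2, 15.7 and 28.0 CPM in iKO 3, iKO 4 and iKO 33, against 12.4, 15.98 and 11.2 CPM in WT 2, WT 3 and WT 4. The groups overlapped through iKO 4 and WT 3 alone, and iKO 33 stood apart from the other 5 libraries. The means were 20.0 ± 6.93 (iKO) and 13.2 ± 2.47 CPM (WT, SD, n = 3 each), with a log2 fold change of 0.59 (SE 0.27, interval -0.03 to 1.22) and an edgeR adjusted p of 0.359 (0.308 to 0.666 when single libraries were left out). Without iKO 33 the log2 fold change was 0.27, and over the 4 shallower libraries it was 0.43 (SE 0.18). The count ratio of Cdkn2a to Cdkn2b was 2.41, 2.08 and 2.23 in iKO 3, iKO 4 and iKO 33, against 2.95, 3.25 and 2.57 in WT 2, WT 3 and WT 4. The groups did not overlap in this ratio, which was chosen after its values were seen and carries no test.

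Cdkn2c encodes p18 (chromosome 4, 109660876 to 109667189, minus strand). It measured 5.47, 4.599 and 4.38 CPM in iKO 3, iKO 4 and iKO 33, against 5.30, 7.05 and 5.35 CPM in WT 2, WT 3 and WT 4. The libraries labelled WT were higher than iKO 4 and iKO 33, and iKO 3 lay among them. The log2 fold change was -0.30 (SE 0.22, interval -0.81 to 0.22, edgeR adjusted p = 0.581), and -0.15 without WT 3.

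**Figure D3:**
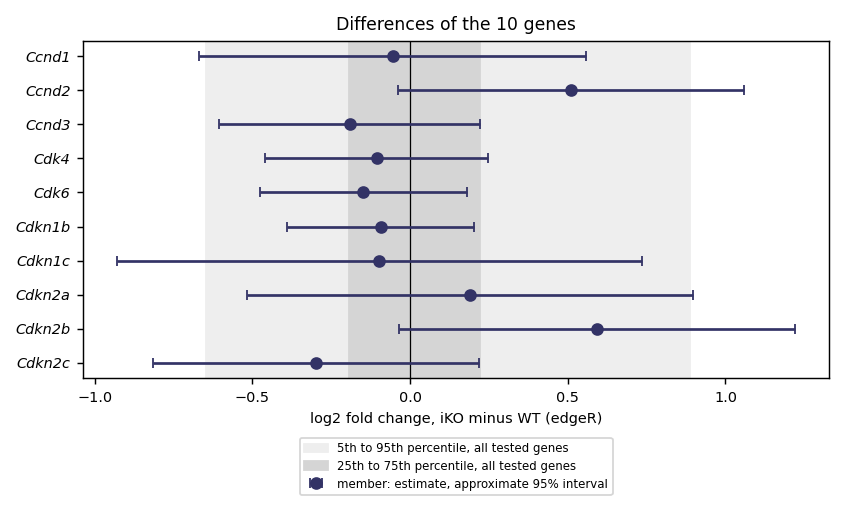
Log2 fold change (iKO minus WT, horizontal axis) of each of the 10 genes, with its approximate 95% interval, over bands that hold the middle of all 12672 tested genes. All 10 intervals include 0; Ccnd2 and Cdkn2b lie farthest to the right.

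Promoters at the Cdkn2a-Cdkn2b locus are shown as a description. Whether they bear on the values of these genes was not tested. The RefSeq windows on GRCm38.p6 are cut where an annotated exon begins and are given 5′ to 3′ on the minus strand, with GGGCGG (the GC box bound by SP1-type factors) in capitals.
p19Arf promoter (chr4:89294654-89294869): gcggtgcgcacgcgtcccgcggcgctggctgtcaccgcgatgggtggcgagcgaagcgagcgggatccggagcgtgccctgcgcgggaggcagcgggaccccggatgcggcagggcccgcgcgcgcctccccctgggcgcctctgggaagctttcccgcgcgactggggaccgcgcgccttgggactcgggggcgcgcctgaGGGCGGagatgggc
p16Ink4a promoter (chr4:89282193-89282442): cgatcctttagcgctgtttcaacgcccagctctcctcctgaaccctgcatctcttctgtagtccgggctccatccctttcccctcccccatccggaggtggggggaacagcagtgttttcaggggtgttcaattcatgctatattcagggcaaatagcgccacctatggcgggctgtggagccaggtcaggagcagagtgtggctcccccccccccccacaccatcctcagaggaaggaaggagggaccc
Cdkn2b promoter (chr4:89311040-89311282): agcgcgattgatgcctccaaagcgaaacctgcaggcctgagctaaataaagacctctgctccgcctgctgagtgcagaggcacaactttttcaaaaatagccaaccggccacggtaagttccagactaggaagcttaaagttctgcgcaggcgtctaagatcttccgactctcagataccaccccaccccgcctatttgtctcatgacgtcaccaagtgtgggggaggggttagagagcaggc
Over the whole 300-base windows the p19Arf start had a GC content of 77.0% and 45 CpG pairs, the p16Ink4a start 60.3% and 12, and the Cdkn2b start 57.7% and 18, against medians of 52.7% and 7 over all windows. GGGCGG or its reverse complement occurred 3 times in the p19Arf window and once in each of the other 2, and 35.7% of all windows hold it. Neither TTTCGCGC nor TTTGGCGC, forms of the E2F motif searched on both strands, was in any of the 10 windows of the 7 members with an entry; 0.323% and 0.514% of all windows hold them. Entries matched for Ccnd3, Cdk4, Cdk6, Cdkn1b, Cdkn2a, Cdkn2b and Cdkn2c, and not for Ccnd1, Ccnd2 and Cdkn1c.

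Within the set, pairs of genes moved together or apart over the 6 libraries, which share depth and scaling, so Pearson correlations of log2 CPM are given as a description. Among 45 pairs the largest in size was between Ccnd2 and Cdkn2c, with r = -0.99 over all libraries and -0.98 after the group means were removed. Cdkn2a and Cdkn2b had r = 0.85, and 0.96 after the group means were removed. Cdk4 and Cdkn1c had r = -0.85 (-0.95), and Cdkn1b and Cdkn2b r = -0.89 (-0.90). The library in which Ccnd2 was lowest, WT 3, was the one in which Cdkn2c was highest, and iKO 33 had the highest Ccnd2 and the lowest Cdkn2c. In iKO 33 Cdkn2a and Cdkn2b lay 0.63 and 0.82 above their mean log2 CPM over the 6 libraries, while Cdkn1b and Cdkn1c lay 0.26 and 0.45 below theirs (values of -0.26 and -0.45). The within-group SD of log2 CPM was 0.13 to 0.54 over the 10 genes (median 0.30), beside a median of 0.24 over all tested genes.

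**Figure D4:**
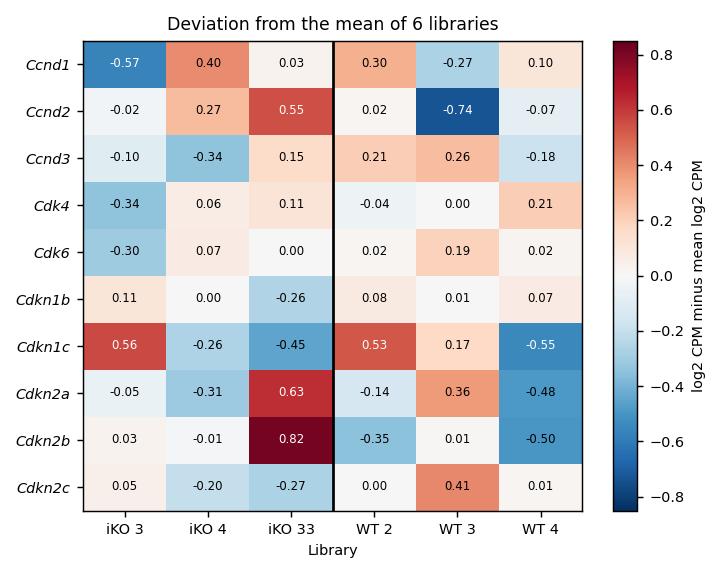
Deviation of log2 CPM from the mean of the 6 libraries, for each gene (rows) and library (columns, iKO left of the line and WT right of it). The strongest cells are Cdkn2b in iKO 33 (0.82) and Ccnd2 in WT 3 (-0.74).

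Per kilobase, the inhibitors among the members had the order Cdkn2a, Cdkn2b, Cdkn1b, Cdkn1c and Cdkn2c by their means in the libraries labelled iKO. These means were 38.1 ± 13.4, 14.4 ± 4.99, 10.2 ± 1.27, 9.67 ± 3.85 and 1.79 ± 0.215 CPM per kilobase (SD, n = 3). In the libraries labelled WT the means were 33.4 ± 9.98, 9.51 ± 1.78, 10.8 ± 0.286, 10.3 ± 3.63 and 2.20 ± 0.372. The middle of this order depends on the length used: with the longest transcript, Cdkn1c averaged 10.4 and Cdkn1b 10.2 CPM per kilobase in the libraries labelled iKO. Cdkn2a came first and Cdkn2c last in every library with either length. The 3 genes between them did not differ from each other beyond their spread in the libraries labelled WT. The Cdkn2a value holds p16Ink4a and p19Arf together, so its rank and the shares below are not known for p16Ink4a alone. Cdkn1a and Cdkn2d are outside this order and outside the summed inhibitor level. Cdkn2b took 16.1%, 19.1% and 22.2% of the summed inhibitor level in iKO 3, iKO 4 and iKO 33, against 13.4%, 14.4% and 15.5% in WT 2, WT 3 and WT 4, without overlap between the groups. The Cdkn2c share was 2.82%, 2.89% and 1.80% in the libraries labelled iKO, against 2.94%, 3.30% and 3.81% in those labelled WT. These groups also did not overlap, in the other direction, but iKO 4 (2.89%) and WT 2 (2.94%) nearly met. WT 2 held 115 Cdkn2c reads, where counting error alone is 9.33% of the value, wider than that gap. Of the 10 class shares, those of Ccnd2, Cdkn2b and Cdkn2c did not overlap. On the CPM scale, 21.9% of all tested genes had groups that did not overlap. Shares within a class add up to a fixed total, so they are not independent of each other. The named shares were singled out after their values were seen and carry no test.

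Genes that overlap the members on the other strand limit some values, since the strand setting of the counting is not given. By GENCODE vM21, 30.7% of the exon bases of Cdkn1c are shared with the antisense gene Gm44732, 23.4% of those of Ccnd1 with LTO1 (Oraov1 in the table) and 19.7% of those of Cdk4 with Tspan31. For Ccnd2, Ccnd3 and Cdk6 the largest overlap with 1 gene was 4.0%, 4.1% and 2.6%, and no gene overlapped Cdkn1b or an INK4 gene. Oraov1 and Tspan31 stood at 0.23 (SE 0.13) and 0.06 (SE 0.14) on the log2 fold change scale, and reads that HTSeq set aside as ambiguous made up 0.999% to 1.05% of counts in the libraries labelled iKO and 0.898% to 0.987% in those labelled WT.

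Around these genes, transcripts that act after cyclin D and CDK4 in the cell cycle had mostly negative log2 fold changes. Of these transcripts edgeR called 1, and DESeq2 called more, as given for each list. Over all tested genes edgeR called 0.339%, and DESeq2 called 6.49% of those it adjusted. Trp63, 1 of the 9 basal markers above, was also lower in the libraries labelled iKO (adjusted p = 0.0529 in edgeR and 9.1e-09 in DESeq2). Of these 9 markers 4 had positive log2 fold changes, and any link to the transcripts here was not tested. All 16 listed E2F target genes of DNA replication were negative (median -0.42, against 0.01 over all tested genes, of which 48.8% were negative), 11 had an unadjusted p under 0.05 (7.70% of all tested genes had one with a negative value), and Mcm6 passed over all genes in edgeR, while DESeq2 called 6. Mcm6, a subunit of the replicative helicase, fell to 155 ± 12.4 CPM in the libraries labelled iKO, against 271 ± 6.61 CPM in those labelled WT (SD, n = 3 each; log2 fold change -0.81, SE 0.10, adjusted p = 0.0361). Its adjusted p was 0.0708 to 0.220 when any single library was left out, so the call rests on all 6. The helicase genes Mcm3 and Mcm7 stood at -0.71 (SE 0.13) and -0.42 (SE 0.10), and the sliding clamp gene Pcna at -0.52 (SE 0.13), none of them past the threshold in edgeR. The list was read with earlier results of these libraries known and is not independent evidence of its direction.

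In the RB and E2F family, 11 of 13 genes were negative (median -0.24), 0 passed in edgeR (5 at an unadjusted p under 0.05), and 3 were called by DESeq2. The shares over all tested genes were 48.8% negative and 15.0% at an unadjusted p under 0.05 in edgeR. DESeq2 called 6.49% of those it adjusted. Groups did not overlap for 6 of the 13 genes, beside 21.9% of all tested genes. E2f1, an activator of S phase genes, measured 16.2, 15.98 and 15.7 CPM in iKO 3, iKO 4 and iKO 33, against 34.1, 25.7 and 29.7 CPM in WT 2, WT 3 and WT 4, with a log2 fold change of -0.90 (SE 0.14, edgeR adjusted p = 0.0622). The repressor gene E2f6 (-0.50, SE 0.10), Rbl1, which encodes the RB relative p107 (-0.65, SE 0.14), and E2f3 (-0.37, SE 0.11) had groups that did not overlap and did not pass (adjusted p = 0.116, 0.121 and 0.196). In the cyclin E, cyclin A and CDK2 list, 7 of 8 genes were negative (median -0.28), 0 passed in edgeR (2 at an unadjusted p under 0.05), and 1 was called by DESeq2. Ccna2, the S phase cyclin gene, stood at -0.53 (SE 0.14), Ccne2 at -0.58 (SE 0.18), Cdk2 at -0.29 (SE 0.13) and Cdc25a, a phosphatase gene that activates CDK2, at -0.30 (SE 0.18).

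Of the other CDK inhibitors, Cdkn1a, the p53-induced gene for p21, belongs to the CIP/KIP family. It measured 464, 343 and 414 CPM in iKO 3, iKO 4 and iKO 33, against 234, 263 and 246 CPM in WT 2, WT 3 and WT 4. Its groups did not overlap, a pattern found for 21.9% of all tested genes. Its log2 fold change of 0.72 (SE 0.14) had an edgeR unadjusted p of 0.0011 and an adjusted p of 0.0967. Cdkn2d, the remaining INK4 gene, stood at -0.22 (SE 0.19) and Cdkn3, a phosphatase gene, at 0.14 (SE 0.25). None of the 3 passed in edgeR. Before adjustment 1 of them lay below 0.05 there, beside 15.0% of all tested genes. Among the genes that DESeq2 adjusted it called 6.49%, and among these 3 inhibitors 1.

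Among regulators of the members, 0 genes passed in edgeR in any of 3 lists. Over all tested genes, 48.8% were negative and 15.0% had an unadjusted p under 0.05 in edgeR, and DESeq2 called 6.49% of those it adjusted. For the regulators of D cyclins, 10 of 17 tested genes were positive (median 0.01; 4 with an unadjusted p under 0.05 counting both directions, DESeq2 called 1), among them the receptor gene Erbb2 at 0.42 (SE 0.16) and Stat3 at 0.35 (SE 0.14), with Fbxo31, whose product marks cyclin D1 for degradation, at -0.43 (SE 0.17). For transcription and turnover of p27, 6 of 10 were negative (median -0.15; 4 with an unadjusted p under 0.05, DESeq2 called 3). Skp2, which targets p27 for degradation, stood at -0.60 (SE 0.13), and of the FOXO factors that can activate Cdkn1b, Foxo3 stood at 0.48 (SE 0.11) and Foxo1 at -0.85 (SE 0.21). Stmn1, a microtubule regulator that p27 binds, stood at -0.52 (SE 0.19). For regulators of the Cdkn2a-Cdkn2b locus, 13 of 15 were negative (median -0.16; 2 with an unadjusted p under 0.05, DESeq2 called 1). The Polycomb genes with the lowest p were Ezh2 at -0.64 (SE 0.20), Kdm2b at -0.19 (SE 0.11) and Cbx7 at -0.52 (SE 0.31). Cbx7 averaged only 1.83 CPM (iKO) and 2.62 CPM (WT). Further Polycomb genes were Cbx8 at -0.27 (SE 0.20), Rnf2 at -0.20 (SE 0.19) and Bmi1 at -0.09 (SE 0.18). Ring1 stood at -0.08 (SE 0.19), Eed at -0.08 (SE 0.10) and Suz12 at 0.21 (SE 0.18). Mdm2, the p53 ubiquitin ligase gene, stood at 0.58 (SE 0.13).

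**Figure D5:**
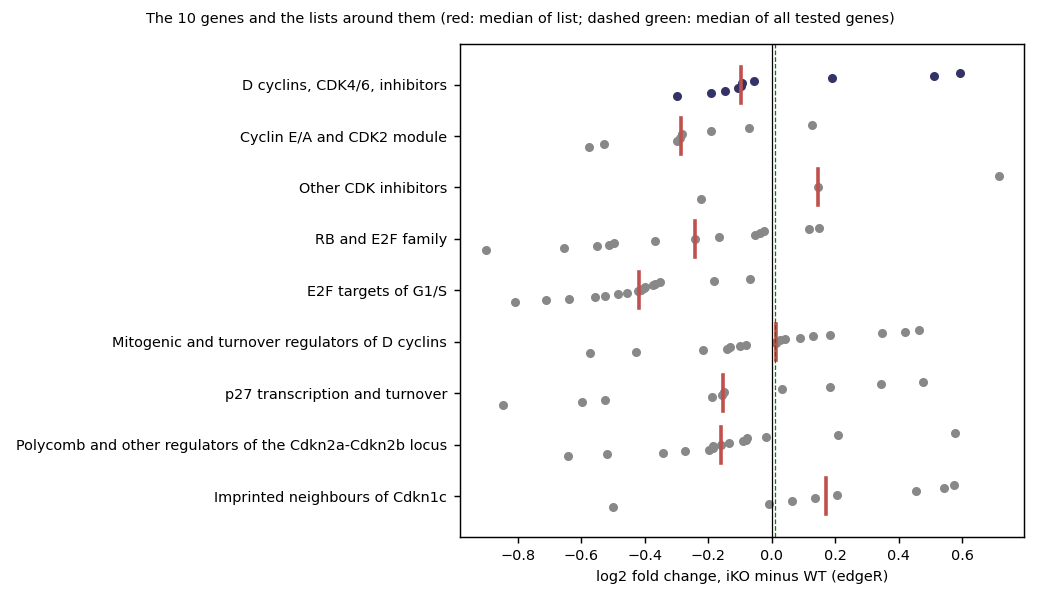
Log2 fold change (iKO minus WT) of the 10 genes (top row) and of the genes in 8 lists around them, one point per gene, with each list's median in red and the median of all tested genes as a dashed line. The 10 genes have a median of -0.10, and the E2F targets lie wholly left of 0 with a median of -0.42.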

How the data were processed

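Illumina TruSeq libraries were made from total RNA, per the labels' protocols. Tools named in the submitters' processing notes are HTSeq, TopHat2, DESeq and DESeq2 (no versions), with genome mm10. Which annotation and strand setting were used is not given in these sources. One deposited table holds whole-number read counts per gene symbol for 6 libraries; its 5 HTSeq summary rows (27.4% to 35.5% of counts per library) were left out. A second deposited table holds the authors' DESeq2 result: a mean normalised signal, log2 fold changes with their SE, a Wald score, and p-values. Columns were assigned by the number in their names, and the column numbered 33 was used as an iKO library without a number of its own. No libraries of a group agreed within sampling noise (smallest chi-square per degree of freedom 48.6).

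The fit of the counts used edgeR 4.0.16 (R 4.3.3) with filterByExpr (minimum count 10), TMM factors, glmQLFit and glmQLFTest with robust estimation, group as the only term, two-sided, Benjamini-Hochberg adjustment at 0.05 over all tested genes. The SE was obtained from the log2 fold change and the F statistic (its absolute value over root F), and approximate 95% intervals use it. Log2 CPM values have a prior count of 2. Levels per kilobase divide normalised CPM by the union of annotated exons. DESeq2 1.42.0, limma-voom (limma 3.58.1), other scalings and filters, a replicate block and leaving out each library were the alternatives; the 4 shallower libraries were added after seeing the data. The edgeR, DESeq2 and limma-voom fits were tested on simulated counts. The 10 genes and the lists were chosen with earlier results of these data known. Named are the 10 genes, Gata6, the up to 4 lowest-p genes per list with any past the threshold, the tested neighbours of each member, and the 3 genes most like the D cyclin, kinase and inhibitor with the smallest p. Positions and exon lengths are from GENCODE vM21 (mm10), promoters from RefSeq (GRCm38.p6).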

Additional observations from a re-analysis of the deposited data

How the results depend on the processing

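The count of 0 called genes among the 10 held in all alternatives run, and no member passed an adjusted p of 0.05 in any. Of 90 log2 fold changes of members from alternatives other than leaving out 1 library, 82 kept their sign. With a replicate block over the libraries numbered 3 and 4, Cdkn1b stood at 0.015, Cdkn1c at 0.34 and Cdkn2a at -0.12; in these libraries without the block Ccnd1 stood at 0.067, Cdkn1b at 0.016, Cdkn1c at 0.35 and Cdkn2a at -0.18; and over the 4 shallower libraries Cdkn1c stood at 0.12. Leaving out single libraries gave log2 fold changes of -0.30 to 0.17 for Ccnd1, -0.19 to 0.023 for Cdk4, -0.17 to 0.0024 for Cdkn1b, -0.47 to 0.16 for Cdkn1c and -0.13 to 0.45 for Cdkn2a, while the other 5 genes kept their sign. The number of called genes among all tested was 43, and 76 without a count filter, 774 in DESeq2, 103 with the replicate block, 4 in the same libraries without it, 9 over the shallower libraries and 7 to 31 when single libraries were left out. In the lists the 1 called gene became 2 without a count filter, 17 in DESeq2, and 0 with the replicate block, without it in the same libraries, over the shallower libraries and without any single library. The pairing rests on a shared number alone: the differences between libraries 3 and 4 correlated between groups with r = 0.60 over genes, but 2 pairs are too few to show that a number marks a shared origin. With the longest transcript as length, the D cyclin share of Ccnd3 was 5.24% (iKO) and 6.22% (WT), and in the libraries labelled WT those of Ccnd1 and Ccnd2 were 72.9% and 20.9%. The causes of these shifts were not tested. The smallest count of a member was 115 reads, which limits Cdkn2c most.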

Other observations

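By Pearson correlation of log2 CPM over the 6 libraries, among 10122 genes with a mean log2 CPM of at least 1, the genes most like Ccnd2 were Tmem43 (r = 0.98), Parp9 (0.98) and Il4ra (0.98), those most like Cdk6 were Vps13c (0.99), Anxa5 (0.99) and Man2a1 (0.98), and those most like Cdkn2b were Gtpbp6 (0.98), Bcap31 (0.97) and Dnmt3a (0.97). In all, 17, 25 and 17 genes had r above 0.95 with Ccnd2, Cdk6 and Cdkn2b, and with 6 libraries such values are a description only.

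The nearest tested genes on either side of the members, on the log2 fold change scale, were as follows. Mtap, which lies 93.4 kb from Cdkn2a on the side away from Cdkn2b, stood at -0.28 (SE 0.14), and Zfp352, 908 kb beyond Cdkn2b, at -0.46 (SE 0.70). Beside Cdkn2c, Rnf11 stood at 0.52 (SE 0.20) and Faf1 at 0.03 (SE 0.12). Beside Ccnd1, Tpcn2 stood at 0.36 (SE 0.32), and beside Ccnd3, Bysl stood at -0.23 (SE 0.15) and Taf8 at 0.10 (SE 0.14). On both sides of Ccnd2, 9630033F20Rik stood at -0.21 (SE 0.20) and Parp11 at -0.05 (SE 0.30). Next to the kinases, March9 stood at 0.15 (SE 0.20) beside Cdk4 and Fam133b at 0.14 (SE 0.14) beside Cdk6. Next to Cdkn1b, 2810454H06Rik stood at -0.16 (SE 0.40) and 1190002F15Rik at -0.29 (SE 0.33). None of these passed in edgeR (lowest adjusted p = 0.287, for Rnf11, the 1 neighbour with an unadjusted p under 0.05).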
